A study of Mus musculus with 15 samples.

Results

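The genes described here are 10 heat shock proteins and co-chaperones, inducible or constitutive, taken as the rows of the count table that carry the symbols Hspa1a, Hspa1b, Hspa8, Hsp90aa1, Hsph1, Dnajb1, Hspb1, Hspb6, Hspb8 and Bag3. They are 10 of the 23337 genes counted in 15 libraries of mouse heart cardiomyocytes. Every library came from Rosa-Cas9GFP mice that were given an adeno-associated virus (AAV) on postnatal day 1 and were 4 weeks old when the heart was digested by Langendorff perfusion (enzyme pumped through the coronary vessels) and cardiomyocytes were sorted. The 5 libraries of the ATF4 group received AAV-ATF4-2A-GFP, the 5 of the DDIT3 group received AAV-DDIT3-2A-GFP, and the 5 of the GFP group received AAV-GFP. All 3 groups therefore carried the Cas9 and GFP alleles, and each vector also encoded GFP. ATF4 and DDIT3 (also called CHOP) are transcription factors of the integrated stress response, and the 2A peptide lets the factor and GFP be made from a single message. The promoter that drove the vectors, and whether a library was 1 mouse or a pool, are not given in the sources used here.

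Heat shock proteins bind unfolded or partly folded proteins and keep them from aggregating. In the cytosol, HSP70 proteins take up a client handed over by a J-domain partner, release it with the help of a nucleotide exchange factor and can pass it on to HSP90, while small heat shock proteins hold unfolded clients without using ATP. Heat shock factor 1 (HSF1) switches on the inducible members when unfolded proteins build up in the cytosol, and this arm is distinct from the endoplasmic reticulum and integrated stress responses to which DDIT3 and ATF4 belong. Heart muscle carries large amounts of small heat shock proteins, and BAG3 with HSPB8 clears damaged filament proteins at the sarcomere.

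HSF1 binds inverted repeats of the unit GAA. The promoters of Hspa1a, Hspa1b, Hsph1 and Hspb1 are shown because their windows hold an inverted pair of this unit. Sequences are from RefSeq on GRCm38.p6, the assembly of mm10, read 5′ to 3′ on the gene's strand over the 250 bases upstream of the transcript start. Capitals mark every GAANNTTC or TTCNNGAA, 2 neighbouring units in opposite orientation, searched on both strands. In GAANNTTC the units face each other, and in TTCNNGAA they face away. The windows are chr17:34972157-34972406 on the minus strand for Hspa1a, chr17:34959239-34959488 on the minus strand for Hspa1b, chr5:149636337-149636586 on the minus strand for Hsph1 and chr5:135887669-135887918 on the plus strand for Hspb1.
Hspa1a: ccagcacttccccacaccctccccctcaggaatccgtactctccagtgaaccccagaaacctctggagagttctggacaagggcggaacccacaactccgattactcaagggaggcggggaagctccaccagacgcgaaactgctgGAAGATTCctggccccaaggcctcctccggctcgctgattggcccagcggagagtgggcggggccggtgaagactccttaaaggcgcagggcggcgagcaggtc
Hspa1b: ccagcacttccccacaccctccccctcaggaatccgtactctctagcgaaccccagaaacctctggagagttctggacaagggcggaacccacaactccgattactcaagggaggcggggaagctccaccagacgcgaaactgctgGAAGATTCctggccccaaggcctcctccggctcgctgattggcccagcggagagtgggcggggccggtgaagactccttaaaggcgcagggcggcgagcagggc
Hsph1: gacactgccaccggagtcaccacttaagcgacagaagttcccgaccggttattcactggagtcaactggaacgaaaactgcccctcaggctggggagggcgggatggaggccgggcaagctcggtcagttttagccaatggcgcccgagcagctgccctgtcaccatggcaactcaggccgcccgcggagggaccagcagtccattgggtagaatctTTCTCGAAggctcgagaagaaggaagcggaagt
Hspb1: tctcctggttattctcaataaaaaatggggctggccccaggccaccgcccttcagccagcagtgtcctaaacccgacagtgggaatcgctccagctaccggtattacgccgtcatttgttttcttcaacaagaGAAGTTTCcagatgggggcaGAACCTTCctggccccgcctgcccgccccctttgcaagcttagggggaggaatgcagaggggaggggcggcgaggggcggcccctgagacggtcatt

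The Hspa1a and Hspa1b windows were identical at 247 of 250 positions, and both held GAAGATTC from 104 to 97 bases upstream. The Hsph1 window held TTCTCGAA from 33 to 26 bases upstream. The Hspb1 window held a pair of matches, GAAGTTTC from 117 to 110 and GAACCTTC from 97 to 90 bases upstream. Of the other members in the promoter table, Hspb6 held GAAGTTTC from 120 to 113 bases upstream of 1 of its starts, and the windows of Dnajb1, Hspb8 and Bag3 held no match to these letters. Across the 32851 mouse promoters of the table the pair occurred in 12.84%. The longer 3-unit motif (GAANNTTCNNGAA or TTCNNGAANNTTC), which contains the pair, occurred in 0.4657% of all promoters and in none of the 11 windows, which belong to 8 of the 10 members. Promoters of Hspa8 and Hsp90aa1 were not analysed here. TGATGNAA or TTNCATCA, the letters of the composite site that ATF4 and DDIT3 are known to share with C/EBP partners, occurred in 3.452% of all promoters and in none of the same 11 windows.

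The libraries held 6217744 to 7514376 counts in ATF4, 7268663 to 8317249 in DDIT3 and 6680988 to 7963333 in GFP, and levels are given as CPM, each count divided by its library's TMM-scaled total. Each vector's own gene was high in its own group: Atf4 stood at 351 to 538 CPM in ATF4 and 51.3 to 82.1 CPM in GFP, and Ddit3 at 664 to 1073 CPM in DDIT3 and 13.4 to 16.6 CPM in GFP. Transcripts of the vector and of the mouse gene are not separated in these counts. Summed over 12 cardiomyocyte markers such as Myh6, levels were 118094 to 128338 CPM in ATF4, 143814 to 162765 CPM in DDIT3 and 141050 to 186785 CPM in GFP. The sum of 14 endothelial markers was 1399 to 2034 CPM in ATF4, 601 to 1048 CPM in DDIT3 and 605 to 1232 CPM in GFP. Leukocyte markers (10 genes) summed to at most 27.3 CPM in any library. Erythroid markers (4 genes) summed to 0.613 to 18.5 CPM, with both ends of the range in GFP. Of these, Hba-a1 and Hba-a2 had 0 counts in all 15 libraries. Beta-s had 341 counts over 15 libraries and Alas2 had 74 over 14. In bulk libraries such as these, fewer cells of a type and less RNA per cell cannot be told apart.

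All 10 members passed the filter on low counts, which left 11814 genes tested by edgeR's quasi-likelihood test with Benjamini-Hochberg adjustment over all of them. In ATF4 against GFP, 2 members rose (Hsp90aa1 and Hspb1) and none fell, against a background of 32.2% of all tested genes called in this comparison, 16.5% as higher and 15.6% as lower. In DDIT3 against GFP no member passed, against a background of 0.863% (0.525% higher, 0.339% lower). In ATF4 against DDIT3, 3 members rose (Hsp90aa1, Hspb1 and Hspb6) and none fell, against a background of 33.8%, with 17.8% of all genes higher and 16% lower. A share of 2 or 3 in 10 is thus near the background. These counts are from the fit without a term for replicate number, and counts with such a term are given below. The split of all called genes depends on scaling: it was 1953 higher and 1848 lower in ATF4 against GFP with TMM factors, and 3010 higher and 1161 lower with unscaled library totals, and for ATF4 against DDIT3 it was 2106 and 1891 with TMM factors, and 2719 and 1294 with unscaled totals. The median log2 fold change of the 10 was 0.09 in ATF4 against GFP, beside 0.02 over all tested genes. It was -0.20 beside 0.00 in DDIT3 against GFP, and 0.54 beside 0.00 in ATF4 against DDIT3. The 3 comparisons share their libraries in pairs and are not independent of each other.

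**Figure D1:**
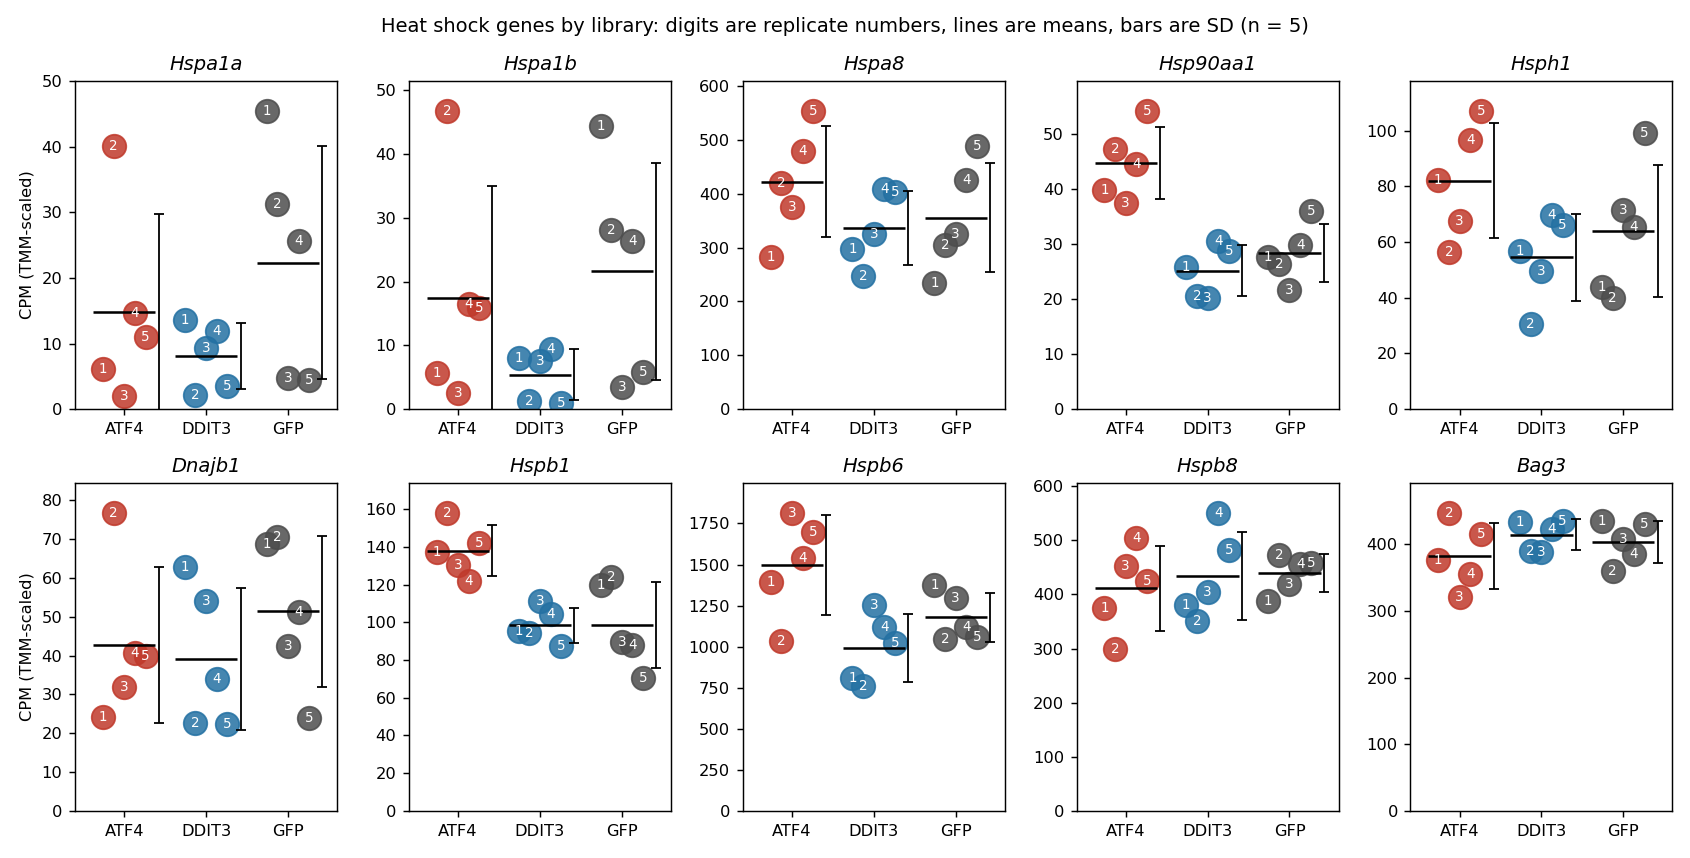
Level of each of the 10 genes in every library, in CPM with TMM scaling; digits are replicate numbers, horizontal lines are group means and bars are the SD over 5 libraries, cut at 0 for Hspa1a and Hspa1b in ATF4. All 5 ATF4 libraries of Hsp90aa1 (37.5 to 54.2 CPM) lie above all libraries of the other groups, while Hspa1a spans 2.02 to 45.5 CPM with the groups intermixed.

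Hspa1a and Hspa1b are neighbouring genes on chromosome 17 (34969190 to 34972156 and 34956436 to 34959238, both on the minus strand) that encode nearly the same stress-inducible HSP70 protein. Their coding sequences were identical at 99.43% of positions, and 58.81% of all 50-base windows of the Hspa1a transcript also occur in Hspa1b, so the split of reads between them is uncertain. Hspa1a also overlaps the protein-coding Gm20481 on the other strand, and the library kit does not mark strand. Hspa1a had 6.12, 40.2, 2.02, 14.6 and 11.0 CPM in ATF4 replicates 1 to 5, 13.6, 2.22, 9.29, 12.0 and 3.50 CPM in DDIT3, and 45.5, 31.3, 4.75, 25.7 and 4.43 CPM in GFP. The 3 libraries ATF4 replicate 2 and GFP replicates 1 and 2 reached more than 30 CPM, and the groups overlapped throughout. The highest library exceeded the lowest 19.9-fold within ATF4, 6.11-fold within DDIT3 and 10.3-fold within GFP.

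Hspa1b had 5.60, 46.8, 2.56, 16.5 and 15.9 CPM in ATF4, 7.99, 1.25, 7.48, 9.37 and 0.943 CPM in DDIT3, and 44.4, 28.0, 3.52, 26.3 and 5.85 CPM in GFP. Its high and low libraries were those of Hspa1a, and again no pair of groups was apart. In DDIT3 against GFP no member had groups that did not overlap, beside 2.86% of all tested genes. Hspa1a took 45.8% of the counts of the pair in ATF4 (526 of Hspa1a and 622 of Hspa1b), 59.9% in DDIT3 (323 and 216) and 50.8% in GFP (833 and 806).

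No comparison called either gene. In DDIT3 against GFP the log2 fold change of Hspa1a was -1.46 ± 0.76 (SE; 95% interval -3.08 to 0.16, edgeR adjusted p = 0.588) and that of Hspa1b was -1.99 ± 0.82 (-3.75 to -0.24, adjusted p = 0.426). Without adjustment, edgeR put 1 member, Hspa1b, below 0.05 in this comparison. DESeq2 also called none of the members. With the counts of both genes added together the value was -1.70 ± 0.81 (edgeR adjusted p = 0.535). The level was lower in DDIT3 in 4 of 5 same-numbered pairs of libraries for each gene, with replicate 3 as the exception for Hspa1a and Hspa1b alike.

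In ATF4 against GFP the log2 fold change was -0.61 ± 0.73 for Hspa1a (95% interval -2.18 to 0.96, edgeR adjusted p = 0.558) and -0.33 ± 0.76 for Hspa1b (-1.95 to 1.30, adjusted p = 0.78). Both values depended on single libraries: without ATF4 replicate 2 Hspa1a stood at -1.41 and Hspa1b at -1.11, and without GFP replicate 1 they stood at -0.19 and 0.11, which turned the direction for Hspa1b. Without ATF4 replicate 3 they were -0.33 and -0.05. The Hspa1b value was also -0.10 without ATF4 replicate 1, and -0.60 and -0.57 without GFP replicates 3 and 5. In ATF4 against DDIT3 the value was 0.85 ± 0.77 for Hspa1a (-0.80 to 2.49, adjusted p = 0.432) and 1.67 ± 0.83 for Hspa1b (-0.10 to 3.43, adjusted p = 0.138). Without ATF4 replicate 2 the Hspa1a value was 0.04 and the Hspa1b value 0.89. As folds, the Hspa1a intervals run from 0.22 to 1.94 for ATF4 over GFP and from 0.575 to 5.62 for ATF4 over DDIT3, so changes of that size are not detectable with this spread.

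Dnajb1, the J-domain partner that hands clients to inducible HSP70, had 24.2, 76.8, 32.0, 40.6 and 40.0 CPM in ATF4, 62.7, 22.7, 53.9, 34.0 and 22.5 CPM in DDIT3, and 68.7, 70.6, 42.4, 51.2 and 23.9 CPM in GFP. ATF4 replicate 2 and GFP replicates 1 and 2 were the 3 highest libraries, as for Hspa1a, and the groups overlapped. The log2 fold change was -0.27 ± 0.36 for ATF4 over GFP, -0.39 ± 0.36 for DDIT3 over GFP and 0.12 ± 0.36 for ATF4 over DDIT3 (edgeR adjusted p = 0.595, 0.813 and 0.829). Leaving out 1 library at a time gave -0.59 (without ATF4 replicate 2) to -0.12 (without ATF4 replicate 1) for ATF4 over GFP and -0.63 to -0.25 for DDIT3 over GFP. For ATF4 over DDIT3 it gave -0.20 (without ATF4 replicate 2) to 0.36 (without DDIT3 replicate 1), and the direction also turned without DDIT3 replicate 2 or 5.

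The spread of these 3 genes between libraries of 1 group was itself unusual. The within-group SD of log2 CPM was 1.52 for Hspa1b, larger than in all but 11 of the 11814 tested genes, and 1.41 for Hspa1a, larger than in all but 14. The median over all tested genes was 0.27. Genes more variable than Hspa1a included the Y-linked Ddx3y, Eif2s3y, Uty and Kdm5d, the activity-induced Nr4a2, Fosb and Fos and the atrial Myl7 and Sln. Dnajb1, at 0.64, was more variable than 94.6% of tested genes, and Hsph1, at 0.47, than 83.0%. Bag3 lay at the other end, with an SD of 0.13 that was larger than in only 7.58% of tested genes. Among genes within a factor of 2 of its mean level, Hspa1a was more variable than 99.8% and Bag3 than 15%.

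**Figure D2:**
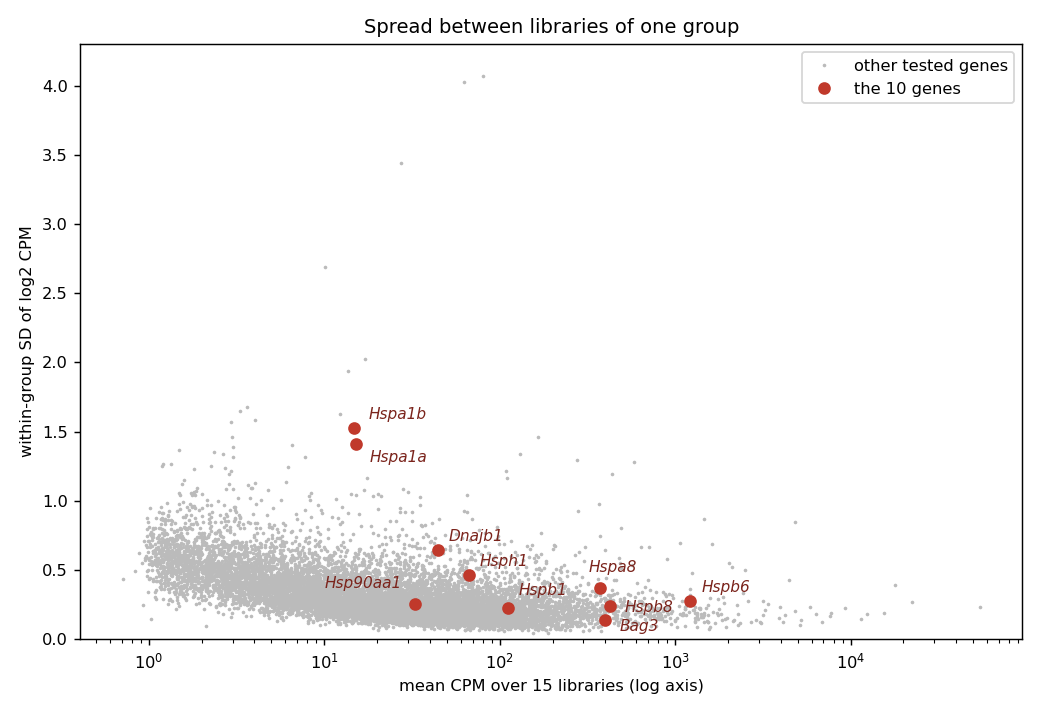
Within-group SD of log2 CPM (vertical axis) against mean CPM over 15 libraries (horizontal log axis) for all tested genes in grey and the 10 genes in red. Hspa1b (1.52) and Hspa1a (1.41) stand far above genes of like level, and Bag3 (0.13) lies in the low part of the cloud.

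With only the group means removed, the members varied together in blocks. Deviations from the group means were correlated over the 15 libraries for 17 pairs built on Hspa1a and Hspa8, with permutation p-values from 100000 reorderings within groups and Benjamini-Hochberg adjustment over the 17. Hspa1a and Hspa1b correlated at r = 0.97 (rho = 0.93, both adjusted p = 0.00051), and reads shared between the copies cannot be told apart from common variation there. Hspa1a and Dnajb1 correlated at r = 0.83 and rho = 0.82 (adjusted p = 0.0054 and 0.0088), and r was 0.83 without the 2 libraries farthest from the median. Hspa1a and Hspb1 reached r = 0.66 and rho = 0.67, which missed the threshold after adjustment (adjusted p = 0.0642 and 0.0834). The reorderings took no account of replicate number, although same-numbered libraries deviated together, so the p-values of all 17 pairs are approximate.

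Another block linked Hspa8, Hsph1 and Hsp90aa1. Hspa8 correlated with Hsph1 at r = 0.73 and rho = 0.78 (adjusted p = 0.0343 and 0.0165; r = 0.63 without the 2 farthest libraries) and with Hsp90aa1 at r = 0.70 and rho = 0.73 (adjusted p = 0.0357 and 0.0266; r = 0.73 without them). Between Hspa1a and Hspa8 r was -0.03 (adjusted p = 0.919). With the mean of each replicate number also removed, r was 0.94 for Hspa1a with Dnajb1 and 0.54 for Hspa1a with Hspa8. It was 0.58 for Hspa8 with Hsph1 and 0.74 for Hspa8 with Hsp90aa1. Hspa8 with Dnajb1 went from -0.16 to 0.66, and with Hspa1b from 0.03 to 0.59. The separation of the blocks was thus not stable to that step, and the values after it were not tested.

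**Figure D3:**
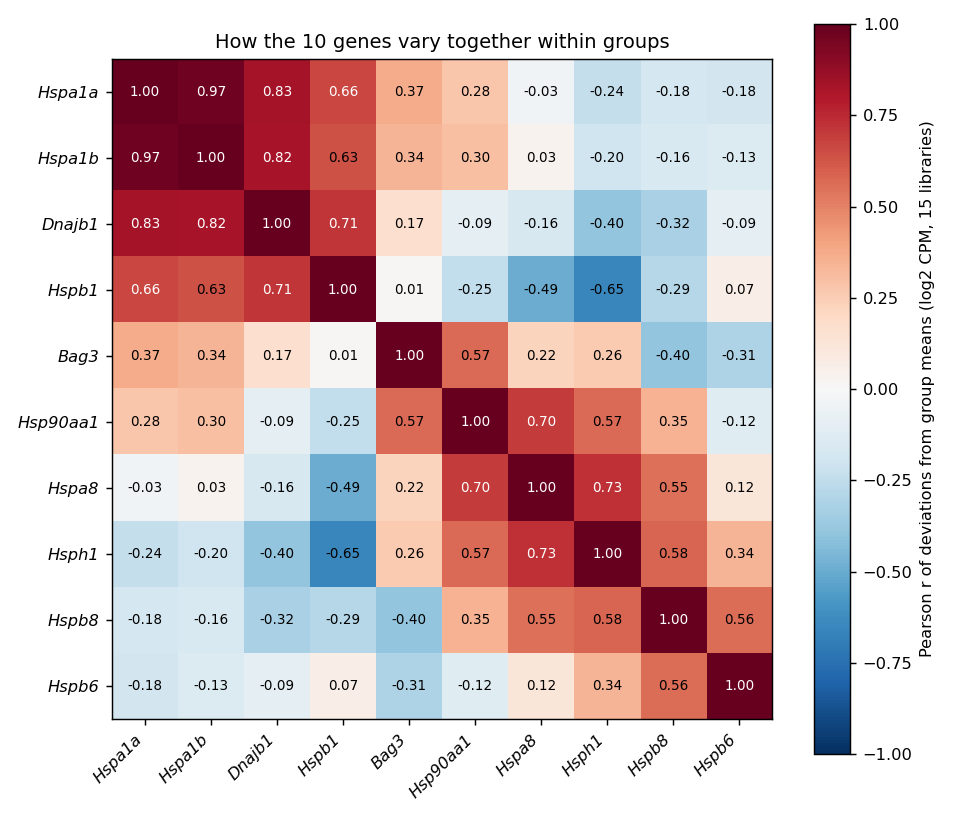
Pearson r between the 10 genes over 15 libraries, from log2 CPM after the group means were removed; red is positive, blue negative. Hspa1a, Hspa1b, Dnajb1 and Hspb1 form a positive block (0.63 to 0.97), and Hspa8 forms another with Hsph1 (0.73) and Hsp90aa1 (0.70). Differences by replicate number are not removed here.

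Immediate early genes, which digestion of tissue into single cells is known to induce, were summed over a list of 28. The sum was 1335 to 3306 CPM in ATF4, 1110 to 3574 CPM in DDIT3 and 1438 to 4763 CPM in GFP. GFP replicates 1 and 2 had the 2 highest sums (4763 and 4684 CPM) and ranked 1 and 3 of 15 for Hspa1a. DDIT3 replicate 2 had the next sum (3574 CPM) but ranked 14 for Hspa1a, and ATF4 replicate 2, ranked 2 for Hspa1a, ranked 4 for the sum (3306 CPM). Of the 26 listed genes tested, ATF4 against GFP called 1 as higher (Myc, 3.65 ± 0.38) and 3 as lower (Gadd45b, -1.70 ± 0.39, Gadd45g, -0.97 ± 0.29, and Jun, -1.16 ± 0.36, log2 fold change ± SE). Over all tested genes this comparison called 16.5% as higher and 15.6% as lower. DDIT3 against GFP called 0 of the 26, beside 0.863% of all tested genes. ATF4 against DDIT3 called 1 as higher and 0 as lower, beside 17.8% and 16%. The median log2 fold change of the 26 was -0.12, -0.38 and 0.14 in these 3 comparisons. The part in the HSP70 values of what moved these genes was not tested.

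Hspa8 encodes the constitutive HSP70 of the cytosol, which works in every cell without stress (chromosome 9, 40800984 to 40810087, plus strand). Its span overlaps the small nucleolar RNA genes Snord14c, Snord14d and Snord14e on the same strand. Hspa8 had 282, 419, 376, 479.7 and 554 CPM in ATF4, 298, 248, 325, 409 and 402 CPM in DDIT3, and 234, 306, 325, 426 and 488 CPM in GFP. The groups overlapped, although each ATF4 library exceeded the GFP library of the same number. The log2 fold change was 0.25 ± 0.20 in ATF4 against GFP (95% interval -0.18 to 0.67, edgeR adjusted p = 0.371), -0.08 ± 0.20 in DDIT3 against GFP (adjusted p = 0.959) and 0.33 ± 0.20 in ATF4 against DDIT3 (adjusted p = 0.229). Same-numbered ATF4 and DDIT3 libraries deviated together, and in a fit blocked by replicate number the ATF4 against DDIT3 value was 0.31 at an edgeR adjusted p of 0.0188.

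Hsph1 encodes HSP110, a relative of HSP70 that serves as its nucleotide exchange factor. Levels were 82.2, 56.3, 67.7, 96.5 and 107 CPM in ATF4, 56.9, 30.5, 49.6, 69.7 and 66.0 CPM in DDIT3, and 44.0, 40.0, 71.4, 65.4 and 99.1 CPM in GFP. The groups overlapped, and ATF4 exceeded DDIT3 in 5 of 5 same-numbered pairs. ATF4 against DDIT3 gave 0.59 ± 0.25 (95% interval 0.05 to 1.12) and missed the threshold (edgeR adjusted p = 0.0844). It passed with the replicate block (0.60, adjusted p = 0.0016) and without ATF4 replicate 2 (0.69, adjusted p = 0.0491). The value was 0.36 ± 0.25 in ATF4 against GFP (-0.17 to 0.89, adjusted p = 0.296) and -0.23 ± 0.25 in DDIT3 against GFP (-0.76 to 0.31, adjusted p = 0.862).

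Hsp90aa1, the inducible cytosolic HSP90, showed the clearest separation of the 10 genes. It stands on chromosome 12 (110690605 to 110702728, minus strand). It had 39.8, 47.4, 37.5, 44.6 and 54.2 CPM in ATF4, 25.8, 20.5, 20.3, 30.6 and 28.8 CPM in DDIT3, and 27.6, 26.5, 21.6, 29.9 and 36.0 CPM in GFP. The lowest ATF4 library lay above the highest of both other groups, and Hsp90aa1 was the 1 member whose ATF4 and GFP libraries did not overlap, beside 21.4% of all tested genes. It averaged 44.7 ± 6.57 CPM in ATF4, 25.2 ± 4.71 CPM in DDIT3 and 28.3 ± 5.27 CPM in GFP (SD, n = 5 each). Hsp90aa1 rose 1.58-fold in ATF4 against GFP (log2 0.66 ± 0.15, edgeR adjusted p = 0.00286) and 1.77-fold in ATF4 against DDIT3 (0.83 ± 0.15, adjusted p = 0.000428). DDIT3 against GFP gave -0.17 ± 0.15 (95% interval -0.49 to 0.15, adjusted p = 0.811). The authors' deposited table listed 0.64 ± 0.16 for ATF4 against GFP.

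Hspb1 (known as HSP25 in mouse, on chromosome 5, 135887919 to 135889563, plus strand) is a small heat shock protein that binds actin filaments and unfolded clients. It had 138, 158, 130.3, 122 and 142 CPM in ATF4, 95.4, 94.2, 111, 104 and 87.4 CPM in DDIT3, and 119.8, 124, 89.6, 88.0 and 70.6 CPM in GFP. Every ATF4 library lay above every DDIT3 library, and 4 of 5 lay above every GFP library. Of the members, Hspb1 and Hsp90aa1 had ATF4 and DDIT3 libraries that did not overlap, beside 22.6% of all tested genes. Hspb1 rose 1.4-fold in ATF4 against GFP (log2 0.49 ± 0.14, edgeR adjusted p = 0.0104) and also 1.4-fold in ATF4 against DDIT3 (0.49 ± 0.13, adjusted p = 0.01). In DDIT3 against GFP the value was 0.00 with an interval of -0.28 to 0.29, which leaves changes of about 1.2-fold in either direction possible. In the authors' deposited table ATF4 against GFP stood at 0.47 ± 0.16.

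Hsp90aa1 and Hspb1 moved in the same direction as the endothelial markers. The test called 12 of 14 endothelial markers as higher in ATF4 against GFP and 13 of 14 in ATF4 against DDIT3, among them Eng (0.85 ± 0.17 and 1.11 ± 0.17) and Tie1 (0.91 ± 0.20 and 1.21 ± 0.20). Of 10 pericyte and smooth muscle markers tested, 4 were higher in each ATF4 comparison. Their list of 11 summed to 3693 to 4562 CPM in ATF4, 3704 to 4335 CPM in DDIT3 and 3785 to 4306 CPM in GFP. These sums overlapped, and Des alone averaged 3062 CPM. Of the 12 cardiomyocyte markers, 7 were lower in ATF4 against GFP and 6 in ATF4 against DDIT3. The part of these cell type differences in the Hsp90aa1, Hspb1 and Hspb6 values was not tested.

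Hspb6 (HSP20), the most abundant member, is a small heat shock protein of muscle (chromosome 7, 30552178 to 30555443, plus strand). It overlaps Proser3 and Lin37 on the other strand and the microRNA gene Gm38670, and since the library kit does not mark strand, reads in shared bases cannot be assigned. Levels were 1392, 1032, 1817, 1538 and 1699 CPM in ATF4, 806, 758, 1251, 1117 and 1021 CPM in DDIT3, and 1378, 1049.6, 1297, 1118 and 1057 CPM in GFP. ATF4 replicates 1, 3, 4 and 5 stood above all libraries of both other groups, and ATF4 replicate 2 lay below all of GFP. Hspb6 rose 1.51-fold in ATF4 against DDIT3 (log2 0.59 ± 0.16, edgeR adjusted p = 0.00719). ATF4 against GFP gave 0.34 ± 0.16 (95% interval 0.01 to 0.67) and missed the threshold (adjusted p = 0.104), but passed without ATF4 replicate 2 (0.45, adjusted p = 0.0222). DDIT3 against GFP gave -0.25 ± 0.16 (-0.58 to 0.08, edgeR adjusted p = 0.67). The DDIT3 library was lower in 5 of 5 same-numbered pairs, but replicate 4 was nearly equal (1117.3 CPM in DDIT3 and 1117.8 CPM in GFP).

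Hspb8, the small heat shock protein that works with BAG3, and Bag3, the co-chaperone that couples it to HSP70 and to autophagy, were not called in any of the 3 comparisons. Hspb8 ranged over 299 to 504 CPM in ATF4, 351 to 551 CPM in DDIT3 and 388 to 473 CPM in GFP, with groups that overlapped. Its log2 fold change was -0.09 ± 0.14 in ATF4 against GFP (95% interval -0.39 to 0.20, edgeR adjusted p = 0.642), -0.02 ± 0.14 in DDIT3 against GFP (-0.31 to 0.28, adjusted p = 0.992) and -0.08 ± 0.14 in ATF4 against DDIT3 (-0.37 to 0.22, adjusted p = 0.71). Bag3, which overlaps 2610306O10Rik on the same strand, varied little. It ranged over 321 to 448 CPM in ATF4, 389 to 436 CPM in DDIT3 and 359.6 to 435 CPM in GFP. Its 95% intervals were the narrowest of the 10. The log2 fold change was -0.08 (-0.28 to 0.13) for ATF4 over GFP, 0.04 (-0.17 to 0.24) for DDIT3 over GFP and -0.11 (-0.32 to 0.09) for ATF4 over DDIT3.

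**Figure D4:**
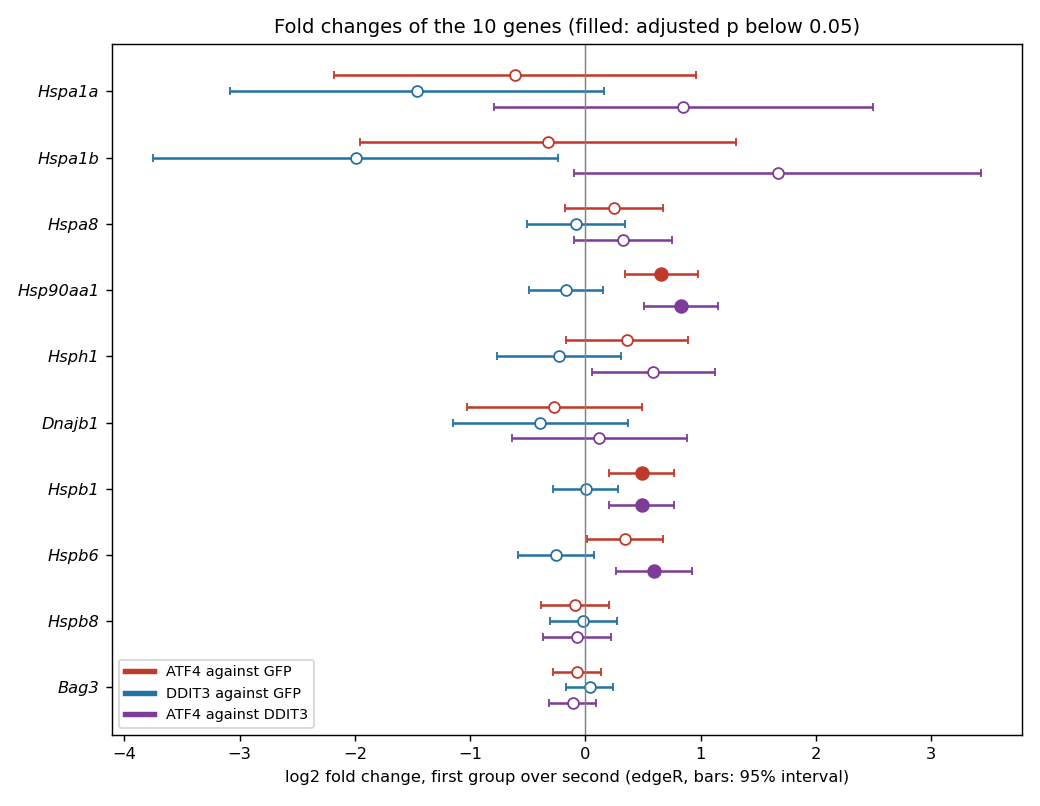
Log2 fold changes of the 10 genes in the 3 comparisons (the group named first over the other), with 95% intervals from edgeR; filled circles have an adjusted p below 0.05. Filled circles are Hsp90aa1 and Hspb1 in both ATF4 comparisons and Hspb6 in ATF4 against DDIT3, and the widest intervals are those of Hspa1a and Hspa1b.

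With a block for replicate number, which the main fit leaves out, ATF4 against DDIT3 called 5 members as higher. Hspa8 and Hsph1 were added to the 3 without it. In ATF4 against GFP the block added Hspa8, Hsph1 and Hspb6 to Hsp90aa1 and Hspb1. The backgrounds of 33.8% and 32.2% of all genes are from the fit without the block, so these calls cannot be set beside them. Whether the added calls go beyond a rise over all genes cannot be told from the counts given here. For DDIT3 against GFP the block left the members at 0 called, while the count over all genes went up to 322 with it, against 102 without it.

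Per kilobase of the deposited gene length, which makes levels of different genes comparable, the order was led by Hspb6 in all 3 groups, at 1129 ± 230.0 CPM per kilobase in ATF4, 748 ± 157 in DDIT3 and 890.4 ± 112 in GFP. It made up 58.2% of the per-kilobase sum of the 10 genes in ATF4, 50.8% in DDIT3 and 54.4% in GFP. In ATF4 it was followed by Hspb8 (227 ± 43.1), Hspa8 (201 ± 49.0), Hspb1 (153 ± 15.1) and Bag3 (148 ± 19.1). From Hspb8 on, each neighbour in this ATF4 order lay within the larger SD of the pair. In DDIT3 Hspb8 (239 ± 45.1) came next, then Hspa8 (159.9 ± 32.9) and Bag3 (159.8 ± 8.97), which did not differ beyond their SD, and Hspb1 (109 ± 10.3). In GFP the same order held, with Hspb8 at 242 ± 19.3, Hspa8 at 169 ± 47.9, Bag3 at 156 ± 12.1 and Hspb1 at 109 ± 25.2, and Hspa8 and Bag3 again within their SD of each other. Hsph1, Dnajb1 and Hsp90aa1 stood between 8.84 and 23.6 CPM per kilobase. The inducible Hspa1a was lowest or next to lowest, with 5.29 ± 5.35 in ATF4, 2.90 ± 1.80 in DDIT3 and 7.98 ± 6.33 in GFP. Reads that match both Hspa1a and Hspa1b may be split or left uncounted, so the place of this pair in the order is uncertain.

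The rest of the chaperone network was followed in 8 lists with 89 tested genes. ATF4 against GFP called 10 as higher and 9 as lower, 21.3% of them beside 32.2% of all genes. With unscaled library totals the split was 26 higher and 4 lower. Hsf1, the factor that drives the heat shock response, stood at 0.08 ± 0.13 (log2 fold change, 95% interval -0.18 to 0.35) and Hsf2 at 0.22 ± 0.24. Hspa5, the HSP70 of the endoplasmic reticulum, stood at -0.00 ± 0.14. Among HSP70 relatives, 1 of 8 rose (Hspa2, 0.76 ± 0.18) and 1 fell (Hspa12a, -0.84 ± 0.11). Of 7 chaperones of other compartments only mitochondrial Hspa9 passed, at 2042 ± 213 CPM in ATF4 and 1152 ± 117 CPM in GFP (0.83 ± 0.11, edgeR adjusted p = 1.36e-05).

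The HSP90 co-chaperones included 3 that fell and none that rose among 20 in ATF4 against GFP. They were the myosin chaperone Unc45b (-0.55 ± 0.09), Cdc37l1 (-0.59 ± 0.11) and the phosphatase Ppp5c (-0.28 ± 0.08). Hsp90ab1, the constitutive partner of Hsp90aa1, stood at 0.29 ± 0.11 (edgeR adjusted p = 0.0582) and passed in ATF4 against DDIT3 (0.45 ± 0.11, adjusted p = 0.0049). Of 17 J-domain proteins, 2 rose and 2 fell, led by Dnajc21 (-0.40 ± 0.12), Dnajb12 (0.35 ± 0.12) and Dnajb4 (-0.36 ± 0.13). Of 14 chaperonin and prefoldin genes, Cct2 rose (0.45 ± 0.10) and Pfdn1 fell (-0.43 ± 0.14).

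Of the 5 other small heat shock proteins tested, the cardiac Hspb7 rose, at 2313 ± 503 CPM in ATF4 and 1339.8 ± 223 CPM in GFP (0.79 ± 0.16, edgeR adjusted p = 0.00136), and Hspb3 fell (-0.61 ± 0.22). Cryab, the abundant alpha-B crystallin, stood at 0.25 ± 0.11 (adjusted p = 0.0982). Of 11 BAG proteins and HSP70 partners, 3 rose, led by the autophagy receptor Sqstm1 (0.92 ± 0.12) and Bag5 (0.35 ± 0.10), and Bag1 fell (-0.48 ± 0.11). Serpinh1, the collagen chaperone HSP47, rose as the 1 call among 8 heat shock factors and regulators (1.14 ± 0.21).

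ATF4 against DDIT3 called 10 of the 89 as higher and 12 as lower, 24.7% beside 33.8% of all genes, or 21 and 6 with unscaled library totals. These included Hspa9 (0.95 ± 0.11), Hspa12b (0.90 ± 0.14), Sqstm1 (0.83 ± 0.12), Hspb7 (0.49 ± 0.16) and Serpinh1 (1.44 ± 0.21) as higher and Hspb3 (-0.61 ± 0.22), Bag1 (-0.56 ± 0.11), Vbp1 (-0.45 ± 0.13), Hsbp1 (-0.40 ± 0.11) and Dnajc7 (-0.31 ± 0.10) as lower. With the replicate block 18 were higher and 18 lower, and the share of all genes called by that fit is not given here. In DDIT3 against GFP edgeR called 0 of the 89, with 6 at an unadjusted p below 0.05, and 2 were called as lower by DESeq2 (Hspa12b and Unc45b) and 2 with the block (Hsp90b1 and Unc45b). Hsf1 stood at 0.15 ± 0.13, Cryab at 0.01 ± 0.11 and Hspa5 at -0.27 ± 0.14 there (95% interval -0.57 to 0.02 for Hspa5).

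The gene whose level followed each member most closely over all 15 libraries was sought among 9722 tested genes of at least 5 CPM on average, with the 10 members themselves left out, as a description with no test. Group differences, depth and replicate number are shared by all points. Hspb1 was followed most closely by Cdc42ep1 and Hsp90aa1 by Eif1a (Pearson r = 0.95 each), Hspb8 by Slmo2 (0.91), Hspa8 by Noc3l (0.91), Hsph1 by the chaperonin subunit Cct3 (0.90) and Hspb6 by Rbbp5 (0.89). Outside the members, Bag3 was followed by the HSP70 relative Hspa1l (0.85), Hspa1a by Rab8b (0.81), Dnajb1 by Slc25a25 (0.79) and Hspa1b by Cdh11 (0.78). The mean standardised level of Hspa1a, Hspa1b, Dnajb1 and Hsph1 was searched as well. These genes do not share a single profile: within groups Hsph1 had r = -0.24 with Hspa1a, -0.20 with Hspa1b and -0.40 with Dnajb1. The 5 genes closest to their mean, outside the members, were Slc25a25 (0.77), Kif26a (0.77), Tmod3 (0.76), H2afx (0.76) and Cdh11 (0.75).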

How the data were processed

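Polyadenylated RNA of sorted cardiomyocytes was measured in 15 libraries (5 per vector), for which the labels name the Nextera XT and SMART-Seq v4 kits. For GFP replicate 5 the label reads SMART-Seq3, and for the other 14 libraries SMART-Seq2. The submitters' processing notes name mm10, STAR, featureCounts, DESeq and DESeq2, and their versions are not given in the sources used here. As whole numbers, the authors deposited read counts per gene for 23337 genes, in which 25 symbols had been turned into dates. Their gene length column (other unit), as deposited, scaled levels per kilobase. The authors' 2 tables of comparisons hold, per the file headers, a mean signal (normalised count), a log2 fold change, a test score (Wald statistic) and p-values, and were used only where named.

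The titles gave each library its group and number. Since no label ties libraries to separate animals, p-values measure only the spread between these samples. Within groups, chi-square per degree of freedom between libraries was 8.60 to 50.4, so no library was a copy. Counts were tested in R 4.3.3 with edgeR 4.0.16 (filterByExpr, TMM factors, quasi-likelihood test with robust glmQLFit, 1 fit of 15 libraries, Benjamini-Hochberg threshold 0.05), and the procedure was tested on simulated data. Of the genes, 11523 were filtered out and 11814 tested. Standard errors and 95% intervals came from the fitted information and the moderated dispersion. Log2 CPM used a prior count of 2. Totals of 6217744 to 8317249 counts set the depth. DESeq2 1.42.0 was an alternative. Others were its size factors, unscaled totals, no filter, only the 2 groups compared, replicate blocks, a sex term and libraries left out. Sex was assigned from the counts of Xist and Y-linked genes. By these, ATF4 and DDIT3 each held 1 female and 4 male libraries, and GFP held 2 female and 3 male.

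Deviations of same-numbered libraries correlated at 0.205 to 0.511 for DDIT3 and GFP and at 0.135 to 0.497 for ATF4 and DDIT3. For ATF4 and GFP the values were also positive, at 0.240 to 0.386 in 4 of 5 and 0.078 for replicate 2. Numbers were thus read as possible pairs in each comparison. The main fit has no term for them, and fits blocked by number are given as alternatives. This relation comes from the data, and no label says what a number marks. The members and gene lists were chosen with earlier results of these data known. Named are the 10 members, 6 other chaperone genes whatever their test, up to 3 called genes of each list by lowest p, and the most alike genes; variable genes named beside Hspa1a were chosen after their values were seen. Promoter letters were searched in RefSeq windows of 250 bases, and coordinates of genes are GENCODE's on mm10.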

Additional observations from a re-analysis of the deposited data

How the results depend on the processing

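Each result was recomputed under 24 alternatives. Hsp90aa1 and Hspb1 in both ATF4 comparisons and Hspb6 in ATF4 against DDIT3 kept their direction and stayed past the threshold under all 24. Unscaled library totals moved the median of all genes by 0.149 in ATF4 against GFP and by 0.112 in ATF4 against DDIT3; they added Hspb6 in ATF4 against GFP (0.48, adjusted p = 0.0213) and Hsph1 in ATF4 against DDIT3 (0.70, adjusted p = 0.0319), and gave 30 network genes (26 higher, 4 lower) in place of 19. In ATF4 against GFP the replicate block called 5 members in place of 2, adding Hspa8 (0.26), Hsph1 (0.38) and Hspb6 (0.32). With DESeq2 size factors too it called 4. Network genes called with the block were 35 (34 with size factors). The shares of all genes called with the block in the ATF4 comparisons are not given here, so these counts have no background beside them. In ATF4 against DDIT3 the block called 5 members in place of 3 and 36 network genes in place of 22, with or without size factors. In DDIT3 against GFP the 102 genes called became 322 with the block, 321 with block and size factors, and 224 with DESeq2, and the 0 network genes became 2, 3 and 2, and 1 with a sex term; members stayed at 0 throughout. The block changed no other call of a member. Leaving out 1 library gave 2 to 3, 0 and 3 to 4 members in ATF4 against GFP, DDIT3 against GFP and ATF4 against DDIT3, 55 to 146 genes in DDIT3 against GFP (lowest without DDIT3 replicate 1, and 61 to 65 without DDIT3 replicate 2 or 3 or GFP replicate 1, 3 or 4), and 0 to 1 network genes there. The causes of these shifts were not tested. Depth allowed 216 to 833 counts per group for Hspa1a and Hspa1b, while libraries of 1 group differed up to 19.9-fold in Hspa1a. The counts of network genes were added as a result after seeing the data.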
